A study of Mus musculus with 94 samples.

Results

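Loss of WAPL late in the differentiation of mouse embryonic stem cells was measured by poly(A) RNA-seq in 4 libraries, of the 94 samples of the series. All 4 came from clone H7 of a CAST/Ei x 129/Sv/Jae hybrid line labelled Tsix-stop, in which WAPL carried an FKBP degron. The 2 treated libraries received dTAG-13, a small molecule that recruits an E3 ligase to the FKBP tag, at 500 nM for 3 days, from day 7 to day 10 of differentiation. The 2 control libraries received the same volume of the vehicle DMSO over the same days, and RNA was taken on day 10 in each case. The degron and the Tsix allele were therefore common to both groups, and clone H7 is 1 clone. Stem cells had been kept on irradiated embryonic fibroblasts with LIF, and were differentiated as embryoid bodies without LIF, in suspension for the first 3 days and on gelatinized plates afterwards. Libraries were chosen by their labels and compared within replicate number, replicate 1 with replicate 1 and replicate 2 with replicate 2.

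WAPL opens the cohesin ring and releases it from DNA, so that loops formed by cohesin are continually dissolved. In cells without WAPL, cohesin stays longer on chromatin and loops grow past the CTCF sites that normally stop them. Polycomb repressive complexes keep developmental regulators such as the Hox genes silent in stem cells, and their target loci contact each other in the nucleus. The title of the series names Polycomb repression and X inactivation as its subjects, and the comparison asks which transcripts differ when WAPL is lost at this stage.

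Total counts were 18529788 and 20403447 in DMSO replicates 1 and 2, and 12076585 and 26956675 in the dTAG-13 replicates. A count of 3, the floor below which a level cannot be told from 0, was worth between 0.11 and 0.247 CPM, the unit of level used here (counts scaled to a common library size and composition), and covers counting error only. Between replicates the chi-square per gene was 54.1 for DMSO and 41.9 for dTAG-13, far more than counting noise gives, so no library was counted as a repeat of another. The leading axis of variation (57.5% of the variance) separated replicate number 1 from number 2 in both treatments, and the next axis (35.6%) separated dTAG-13 from DMSO. Across genes, a DMSO library and the dTAG-13 library of the same number departed from the means of their groups together (r = 0.765). The labels give only a shared number, and do not say that replicates were separate cultures, so the p-values measure the spread between these samples only.

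With edgeR's quasi-likelihood test and the replicate number as a block, 5197 of 14110 tested genes passed an adjusted p of 0.05, which is 36.8%. Of these 2501 rose (17.7%) and 2696 fell (19.1%), and the median log2 fold change of all genes tested was -0.01. Most changes were small. Only 259 genes rose by 2-fold or more (1.84%) and 151 fell by as much (1.07%). The 2 pairs, which share no library, gave changes that correlated across genes with r = 0.691 and rho = 0.696 (genes are not independent replicates), and 77.3% of genes had the same sign in both. Levels of the dTAG-13 libraries lay above both DMSO libraries for 2444 genes (17.3%) and below both for 2368 (16.8%). Within pairs, 36.4% of genes were higher with dTAG-13 in both and 41% lower in both. Without the block, edgeR called 0 genes, limma-voom 0 and DESeq2 44, all 44 of them among the blocked calls, while 929 genes (6.58%) had an unadjusted edgeR p under 0.05. In data simulated for this comparison the blocked test recovered 94% of planted 2-fold changes with 7.5% false calls, and the unblocked test recovered 0. The simulated means were set per replicate number, with the spread of the blocked fit. A replicate effect was thus built in, so the simulation cannot show whether the block is right for these libraries. DESeq2 with the block called 1542 genes (10.9%) and gave no adjusted p for 548, and the late treatment in a fit of all 8 clone H7 libraries, which adds those of days 4 to 7, gave 2071 calls among 14324 genes (14.5%). "Rose" and "fell" below mean a call in the blocked test. Counts for lists from DESeq2 with the block and from the 8-library fit stand beside these 10.9% and 14.5% of all genes.

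**Figure D1:**
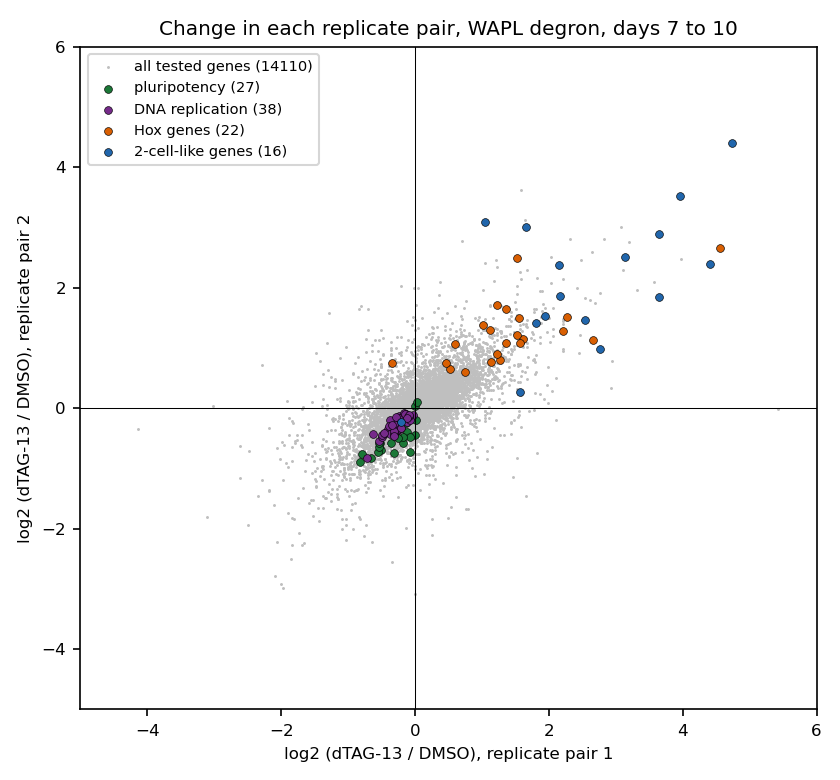
Each point is a gene, with its log2 ratio of dTAG-13 to DMSO in replicate pair 1 on the x axis and in pair 2 on the y axis. Grey points are all 14110 tested genes, and coloured points are 4 gene lists: Hox genes (22) and 2-cell-like genes (16) lie mostly in the upper right quadrant, and pluripotency (27) and DNA replication genes (38) mostly just below 0 on both axes.

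The degron acts on the protein, and the Wapl transcript was at 631 and 817 CPM with DMSO and at 647 and 787 CPM with dTAG-13 (replicates 1 and 2, the order used throughout). The groups overlapped and the log2 fold change was -0.01 (SE 0.10, adjusted p = 0.952), so RNA does not check the depletion. Among 18 genes of the cohesin machinery 1 rose and 7 fell, with a median of -0.12. Esco2, which acetylates cohesin in S phase, fell from 61.2 and 78.4 CPM to 42.1 and 55.7 (log2 -0.51, SE 0.06, adjusted p = 4.12e-08). Each dTAG-13 library lay below both DMSO libraries. Ctcf, whose product halts loop extrusion at its binding sites, was lower in each pair as well, from 267 and 279 to 216 and 234 CPM (log2 -0.28, SE 0.07, adjusted p = 0.00109). Cdca5 (sororin, log2 -0.31), Stag1 (-0.29), Pds5a (-0.25) and the meiotic subunit gene Smc1b (-0.38) also fell. The only riser was Rec8, the meiotic kleisin (14 and 16.6 to 21.2 and 22.5 CPM, log2 0.50). The subunit gene Rad21 (log2 -0.11, adjusted p = 0.225) and the loader gene Nipbl (0.04, adjusted p = 0.633) did not pass. In DESeq2 with the block 4 genes of this list passed.

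Among genes whose log2 CPM averaged 2 or more and whose groups did not overlap, the largest rise belonged to Pcdh10 on chromosome 3, which encodes a non-clustered protocadherin, a cell adhesion protein of the cadherin superfamily. It was at 0.797 and 1.67 CPM with DMSO and at 6.92 and 13.7 CPM with dTAG-13 (log2 3.06, SE 0.21, adjusted p = 1.58e-13). Both dTAG-13 libraries stood above both controls, and replicate 2 was higher than replicate 1 in either treatment. The related X-linked protocadherin gene Pcdh19 showed the same order, with 3.35 and 5.51 CPM in the controls against 11.9 and 24.8 (log2 2.05, SE 0.14, adjusted p = 1.16e-13). Lingo1, which encodes a leucine-rich repeat membrane protein of neurons, rose from 5.31 and 6.27 to 19.4 and 24.1 CPM (log2 1.91, SE 0.12, adjusted p = 3.55e-14). Its groups were wide apart relative to the difference between replicates.

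Pcdh10 had the largest rise under the limits on level and overlap given above, and whether Polycomb binds it was not tested. The 300 bases around the RefSeq start of Pcdh10 are shown because they have the CG-rich composition that is also found at many Polycomb targets. They come from RefSeq's GRCm38.p6 annotation (chr3:45378148-45378447, plus strand), run 5′ to 3′ from 250 bases before to 50 bases after the start, and hold 24 CG dinucleotides, printed in capitals, where the median of 32851 promoters of this length was 7.
Pcdh10: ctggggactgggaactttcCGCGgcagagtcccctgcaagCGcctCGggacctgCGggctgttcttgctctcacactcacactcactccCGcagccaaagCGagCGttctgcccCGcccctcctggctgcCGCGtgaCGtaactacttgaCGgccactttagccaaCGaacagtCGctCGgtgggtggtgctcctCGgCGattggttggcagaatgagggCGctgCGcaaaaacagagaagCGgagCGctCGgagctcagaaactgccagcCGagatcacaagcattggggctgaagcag

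The retinaldehyde dehydrogenase genes Aldh1a1 and Aldh1a2, whose enzymes make retinoic acid, were also among the 10 largest rises. Aldh1a1 was at 1.17 and 3.19 CPM with DMSO and at 6.59 and 7.43 with dTAG-13 (log2 1.63, SE 0.22, adjusted p = 5.29e-07). Aldh1a2 was at 3.77 and 4.50 CPM in the controls and reached 10.9 and 13.1 (log2 1.54, SE 0.16, adjusted p = 1.34e-09). Neither gene's groups overlapped. Prnd, which encodes the prion-like protein doppel, rose from 9.13 and 11.2 to 29.1 and 31.2 CPM (log2 1.56, SE 0.10). The surface antigen gene Ly6a (Sca-1) rose from 2.60 and 2.12 to 8.23 and 5.63 CPM (log2 1.53, SE 0.20). The metalloprotease gene Adamts17 (log2 1.61), Gxylt2 (1.73), whose enzyme adds xylose to Notch, and the membrane protein gene Tmem140 (1.77) complete the 10. In all of these genes the smaller dTAG-13 value exceeded the larger DMSO value.

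Spon1, the gene of the extracellular matrix protein F-spondin on chromosome 7, had the largest fall by the same rule. It went from 35.6 and 18.9 CPM with DMSO to 6.26 and 4.89 with dTAG-13 (log2 -2.20, SE 0.13, adjusted p = 2.77e-15). Pla2g1b, which encodes a secreted phospholipase, stood at 21.7 and 14.9 CPM in the controls and at 6.01 and 2.61 after treatment (log2 -2.19, SE 0.15, adjusted p = 1.96e-13). Replicate 1 was the higher one in either treatment for both genes. Myb, a transcription factor gene of blood progenitors that is also active in other dividing cells, fell from 16.6 and 14.9 to 4.69 and 4.12 CPM (log2 -1.84, SE 0.14, adjusted p = 3.68e-12). The replicates of Myb were close to each other and far from the other group. Gli1, the transcription factor gene that Hedgehog signalling switches on, gave 8.23 and 7.38 CPM against 2.72 and 2.46 (log2 -1.59, SE 0.19, adjusted p = 5.18e-08). The long noncoding RNA gene Miat (log2 -1.72), Skida1 (-1.59), Klhl4 (-1.54), the meiotic recombination gene Hsf2bp (-1.53) and Fgf15 (-1.45) fell as well. Rpl27 had a log2 fold change of -1.75, but its 2 controls were at 18.5 and 3.39 CPM, and ribosomal protein genes have many near-identical copies between which reads can be split, so its value is uncertain.

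**Figure D2:**
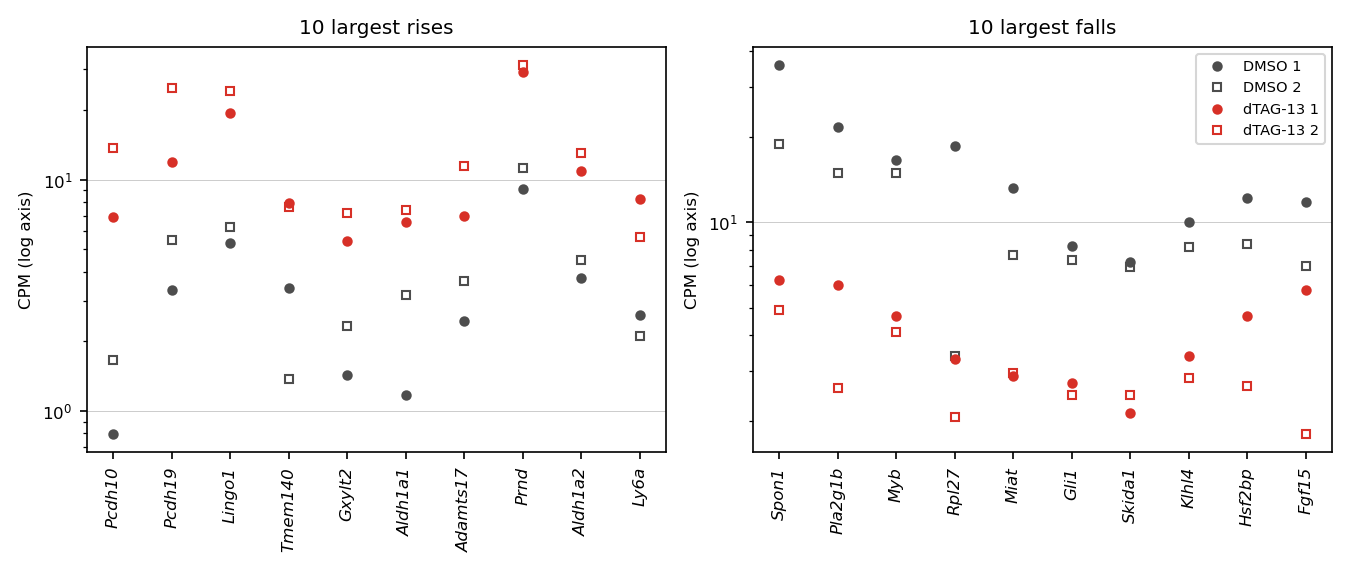
CPM on a log axis for the 10 genes with the largest rises (left) and the 10 with the largest falls (right), with 1 marker per library: grey for DMSO, red for dTAG-13, circles for replicate 1 and open squares for replicate 2. In each gene both red markers lie on the same side of both grey ones, with Pcdh10 going from 0.797 and 1.67 to 6.92 and 13.7 CPM and Spon1 from 35.6 and 18.9 to 6.26 and 4.89 CPM; the grey markers of Rpl27 are far apart.

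Hox genes encode the homeodomain factors that set position along the body axis and are classical Polycomb targets. Of 22 tested, 18 rose, none fell, and 15 rose by 2-fold or more, beside 17.7% of all genes that rose. In 19 of the 22 both dTAG-13 libraries lay above both controls (17.3% of all genes). The median log2 fold change was 1.27, with 1.31 in pair 1 and 1.14 in pair 2. Of the 22, 13 reached the count filter in both controls, and 11 of these rose and none fell (median 1.24). Another 8 passed the filter through the dTAG-13 libraries alone and so had to be higher there. Another 2 Hox genes of the table were under the filter. Rises occurred in all 4 clusters, but the counts by cluster are over all 22 genes and include those 8. Genes that reached the filter in the controls were not counted by cluster. The HoxA cluster had 5 risers of 6 tested genes (median 1.43), HoxB 5 of 5 (1.63), HoxC 2 of 4 (0.78) and HoxD 6 of 7 (1.28). Of all 22, only Hoxc8, named after its values were seen, was not higher in both pairs (0.425 and 0.708 CPM against 0.329 and 1.21, adjusted p = 0.33). By DESeq2 with the block 8 of the 22 passed and 9 had no adjusted p, and the fit of all 8 clone H7 libraries called 16.

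Hoxd9, in the middle of the HoxD cluster, gave 4.09 and 5.06 CPM in the controls and 11.9 and 11.8 after dTAG-13 (log2 1.35, SE 0.15, adjusted p = 1.71e-08). The dTAG-13 replicates of Hoxd9 were nearly equal. Hoxb1, a hindbrain gene that responds to retinoic acid, went from 1.49 and 0.910 to 7.24 and 2.65 CPM (log2 2.00, SE 0.26, adjusted p = 2.77e-07). Its 2 treated libraries were further apart than its controls, with replicate 1 the higher. The posterior genes Hoxd10 (0.850 and 1.26 to 2.55 and 3.6 CPM, log2 1.53) and Hoxd11 (0.584 and 0.607 to 1.73 and 3.53 CPM, log2 2.17) and the neighbouring Hoxd8 (1.59 and 3.13 to 4.77 and 6.69 CPM, log2 1.25) rose together. None of these overlapped between groups. The highest fitted value belonged to Hoxb7, which had 0 and 2 counts in the controls and 7 and 21 with dTAG-13, so no fold is given.

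A pair of Hox promoters is printed to show how unlike they are in base composition although both genes rose. Coordinates are from RefSeq's GRCm38.p6 (Hoxb1 at chr11:96365508-96365807, plus strand, Hoxd9 at chr2:74697513-74697812, plus strand), each from 250 bases before to 50 after the start, with CG dinucleotides in capitals. The Hoxb1 window holds 10 of them and the Hoxd9 window 20.
Hoxb1: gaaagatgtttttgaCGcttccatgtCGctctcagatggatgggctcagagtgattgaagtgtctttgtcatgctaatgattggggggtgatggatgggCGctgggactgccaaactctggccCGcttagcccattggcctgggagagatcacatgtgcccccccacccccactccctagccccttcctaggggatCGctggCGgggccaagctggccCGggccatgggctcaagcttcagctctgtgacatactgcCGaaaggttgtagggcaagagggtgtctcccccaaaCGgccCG
Hoxd9: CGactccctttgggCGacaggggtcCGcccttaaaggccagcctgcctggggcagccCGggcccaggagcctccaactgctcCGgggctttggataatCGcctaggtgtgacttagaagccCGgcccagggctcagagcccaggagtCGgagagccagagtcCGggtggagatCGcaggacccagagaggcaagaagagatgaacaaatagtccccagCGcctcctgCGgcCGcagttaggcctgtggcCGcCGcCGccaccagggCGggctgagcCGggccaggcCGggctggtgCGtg

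Other homeobox regulators moved in both directions, with 12 of 42 rising, 6 falling and a median of 0.11. Barx1, a homeobox gene of the stomach and jaw mesenchyme, had the steepest rise, from 1.43 and 0.758 to 8.15 and 4.30 CPM (log2 2.50, SE 0.25, adjusted p = 1.04e-09). Dlx3, active in placenta and epidermis, went from 4.89 and 9.0 to 12.6 and 18.9 CPM (log2 1.17, SE 0.13). The forebrain gene Otx1 rose from 1.22 and 2.38 to 5.19 and 5.52 CPM (log2 1.53, SE 0.23), while its paralog Otx2, a gene of the epiblast and anterior neural plate, fell from 143 and 116 to 75.7 and 59.6 CPM (log2 -0.94, SE 0.06, adjusted p = 1.61e-14). Both paralogs kept their groups apart, in opposite directions. Lhx1, a regulator of the head organizer and kidney, fell from 70.8 and 101.6 to 39.3 and 39.9 CPM (log2 -1.13, SE 0.07, adjusted p = 6.85e-14). The caudal gene Cdx2, which activates posterior Hox genes and also marks trophoblast, rose from 15.8 and 17.6 to 29.1 and 23.8 CPM (log2 0.64, SE 0.10).

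Among 30 genes of Polycomb complexes 1 rose and 12 fell, with a median of -0.07, and no change reached 2-fold. Log2 fold changes over the list ran from -0.49 to 0.85. The chromodomain genes Cbx2 (50.1 and 48.9 to 35.7 and 34.9 CPM, log2 -0.49, SE 0.07, adjusted p = 6.22e-07) and Cbx7 (200 and 156 to 144 and 118 CPM, log2 -0.44, SE 0.06, adjusted p = 4.86e-07), whose products read the H3K27me3 mark, fell furthest. For each of them both dTAG-13 values were under both controls. The PRC2 accessory genes Jarid2 (log2 -0.33) and Mtf2 (-0.27) and the catalytic subunit gene Ezh1 (-0.30) fell too. Ezh2, which encodes the main H3K27 methyltransferase, was at 218 and 194 CPM against 198 and 182 (log2 -0.12, SE 0.06, adjusted p = 0.129). In DESeq2 with the block 4 of the 30 passed, a share near the 10.9% of all genes.

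In stem cell cultures a small, changing fraction of cells is in a 2-cell-like state and expresses transcripts of the 2-cell embryo, among them the Zscan4 cluster, which acts on telomeres, and the Usp17l family of deubiquitinases. Of 20 listed genes in the table, 4 were under the count filter. Of the 16 tested, 6 reached it in both controls, and of these 5 rose and 1 fell (median 1.89). The other 10 passed the filter through the dTAG-13 libraries alone and so had to be higher there. Over all 16, 14 rose, all 14 by 2-fold or more, and the median was 2.17 (2.35 in pair 1 and 2.12 in pair 2), values that lean on those 10. In 15 of the 16 both dTAG-13 libraries lay above both controls (17.3% of all genes), a count that leans on the same 10. In bulk RNA, more cells in this state and more transcript per cell cannot be told apart, here and in each list below. The fit of all 8 clone H7 libraries called 13 of the 16, and DESeq2 with the block 9, with no adjusted p for 5.

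Zscan4c, on chromosome 7, was at 1.70 and 0.910 CPM with DMSO and at 7.74 and 3.38 with dTAG-13 (log2 2.07, SE 0.25, adjusted p = 4.07e-08). Usp17la gave 0.478 and 0.253 CPM in the controls and 7.82 and 3.16 after treatment (log2 3.88, SE 0.33, adjusted p = 2.89e-11). Usp17lb rose from 0.478 and 0.708 to 10.7 and 3.83 CPM (log2 3.53, SE 0.28, adjusted p = 5.9e-12). In all of them replicate 1 of dTAG-13 exceeded replicate 2, and both stood above the controls. The relatives Usp17lc (log2 3.37) and Usp17le (2.96) and the predicted gene Gm5662 (0.425 and 0.506 to 3.95 and 3.02 CPM, log2 2.86) rose likewise. Usp17ld had 0 counts in both controls and 8 and 14 with dTAG-13, at least 7.2-fold higher against a floor of 3 counts over the control group, and with this gene at its bound the list median was still 2.17. The member that fell was Eif1a, a translation initiation factor gene named here after its value was seen (log2 -0.22). Members of each family are near-identical copies and how the counting treated shared reads is not given in the sources used here, so the values of single copies are uncertain.

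Promoters of the Zscan4 copies are shown because they share a sequence element. The motif searched, on both strands, was TGATT followed by any 2 bases and ATCA, an arrangement of inverted TGAT repeats known for the 2-cell factor DUX. It occurred in each of the 4 Zscan4 promoters that matched RefSeq by symbol and in 68 of 32851 promoters of 300 bases (0.207%). In capitals is the match, which on the gene's strand reads as the reverse complement of the motif. It starts 114 bases before the Zscan4c start and 125 before that of Zscan4d. The windows are chr7:11005495-11005794 (Zscan4c, plus strand) and chr7:11166099-11166398 (Zscan4d, minus strand) of RefSeq's GRCm38.p6, and over 289 bases, offset by 11, they were 97.2% identical. The Usp17la window (chr7:104856766-104857065, plus strand) held no match and 1 CG dinucleotide.
Zscan4c: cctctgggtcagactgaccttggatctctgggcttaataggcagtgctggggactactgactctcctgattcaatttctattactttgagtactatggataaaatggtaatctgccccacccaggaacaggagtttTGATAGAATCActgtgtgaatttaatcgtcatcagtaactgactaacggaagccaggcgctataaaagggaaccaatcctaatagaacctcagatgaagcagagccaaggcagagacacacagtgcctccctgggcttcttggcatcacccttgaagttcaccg
Zscan4d: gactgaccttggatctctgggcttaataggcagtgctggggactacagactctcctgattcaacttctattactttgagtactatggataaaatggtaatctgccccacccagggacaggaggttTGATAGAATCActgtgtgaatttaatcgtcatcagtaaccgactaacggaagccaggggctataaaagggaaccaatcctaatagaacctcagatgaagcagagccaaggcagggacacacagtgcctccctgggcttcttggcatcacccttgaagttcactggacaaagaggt
Usp17la: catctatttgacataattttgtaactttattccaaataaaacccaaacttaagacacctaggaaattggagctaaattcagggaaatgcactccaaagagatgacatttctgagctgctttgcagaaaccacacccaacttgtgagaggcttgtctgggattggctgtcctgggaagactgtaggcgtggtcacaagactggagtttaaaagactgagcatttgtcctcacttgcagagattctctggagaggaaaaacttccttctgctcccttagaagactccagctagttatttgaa

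RefSeq promoters matched 9 of the 16 genes of the 2-cell-like list, 15 of the 22 Hox genes and 10576 of the 14110 tested genes by symbol. Of 14 tested genes with the motif in this window, 7 rose and 1 fell, beside 17.7% and 19.1% of all genes. The 14 include the 4 near-identical Zscan4 copies, which were shown because they share the motif. Leaving out the Zscan4 copies, 3 of 10 rose and 1 fell, with a median log2 fold change of 0.18, and no Hox promoter of the 15 held the motif. A match is a description of letters and says nothing of binding.

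**Figure D3:**
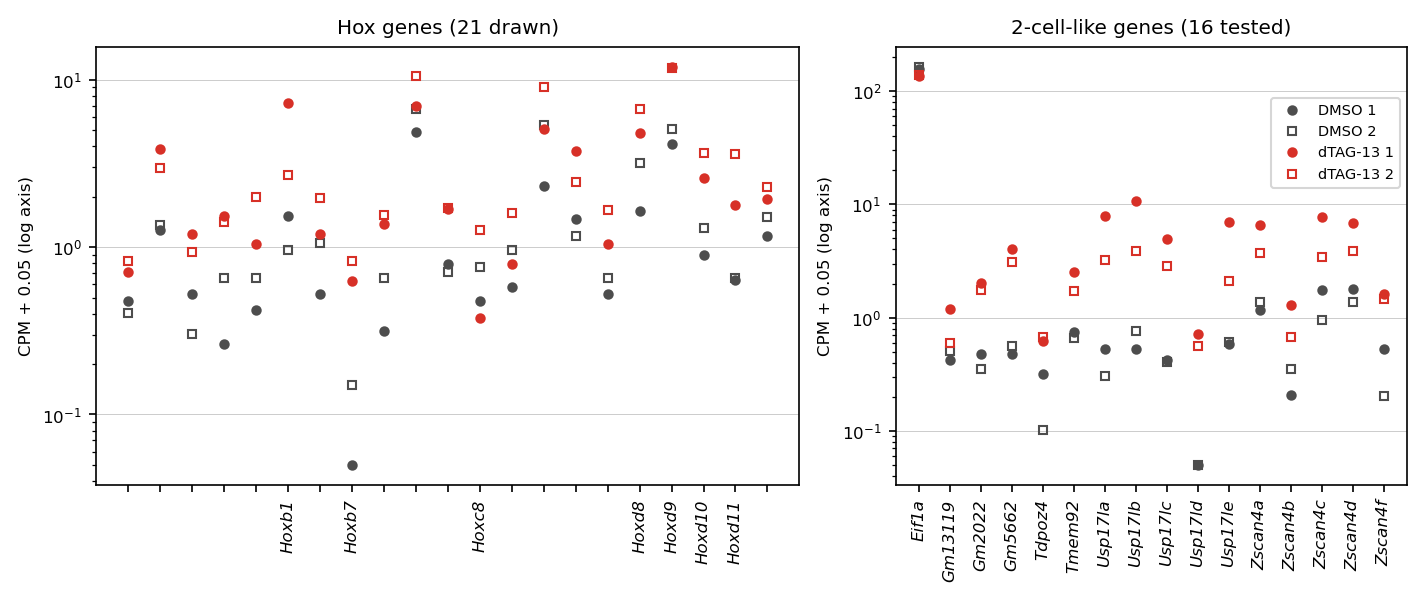
CPM plus 0.05 on a log axis for 21 Hox genes (left, with names for those described) and the 16 2-cell-like genes (right), 1 marker per library: grey for DMSO, red for dTAG-13, circles for replicate 1 and open squares for replicate 2. Red markers lie above both grey ones in 18 of the 21 Hox genes drawn and 15 of the 16 2-cell-like genes. Of the tested genes, 8 Hox and 10 2-cell-like genes passed the count filter through dTAG-13 alone and so had to be higher there. Markers at the bottom edge are libraries with 0 counts.

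Pluripotency genes, which maintain the stem cell state and decline as embryoid bodies differentiate, were lower with dTAG-13. Of 27 tested, 22 fell and none rose, beside 19.1% of all genes that fell, and the median was -0.35 (-0.24 in pair 1 and -0.49 in pair 2). Replicate number moved these genes too. Both dTAG-13 libraries lay below both controls in 10 of the 27 (16.8% of all genes), and the groups overlapped in the rest. Zfp42 (Rex1) fell from 129 and 101 to 73.5 and 54.6 CPM (log2 -0.86, SE 0.06, adjusted p = 1.38e-13). Sox2 fell from 258 and 249 to 179 and 167 CPM (log2 -0.55, SE 0.06, adjusted p = 1.66e-08), with groups well apart. Pou5f1 (Oct4) was at 696 and 412 CPM with DMSO and at 543 and 275 with dTAG-13 (log2 -0.47, SE 0.09, adjusted p = 4.53e-05). Its groups overlap, because the difference between replicates 1 and 2 exceeded the change within either pair. Esrrb (log2 -0.61), the orphan receptor gene Nr0b1 (-0.75), L1td1 (-0.56) and Fgf4 (-0.64) fell as well. The 8-library fit called 11 of the 27 and DESeq2 with the block 13.

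Genes of the primed epiblast, the state that follows implantation, were mostly lower too: 9 of 11 fell, 1 rose, and the median was -0.61 (-0.56 and -0.65 in the pairs). The de novo DNA methyltransferase gene Dnmt3b went from 732 and 492 CPM to 390 and 288 (log2 -0.84, SE 0.08, adjusted p = 1.2e-09). Fgf5, the classical marker of this state, went from 194 and 180 to 117 and 105 CPM (log2 -0.75, SE 0.06, adjusted p = 4.68e-12). The zinc finger gene Zic2 was at 236 and 186 CPM in the controls and at 135 and 114 after dTAG-13 (log2 -0.76, SE 0.06). For all of these the highest treated value lay under the lowest control. Pou3f1 (log2 -0.61), Sox3 (-0.39) and Dnmt3a (-0.24) fell as well. Nodal, the ligand that maintains this state, was the riser (128 and 112 to 170 and 118 CPM, log2 0.24), with overlapping groups, and Lef1 did not pass (log2 -0.07, adjusted p = 0.411).

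Of 23 defining markers looked up for the cell types that an embryoid body could hold, 18 were tested. The endodermal Afp, the trophoblast gene Elf5, the endothelial Cdh5 and the leukocyte gene Ptprc have no value here, and the embryonic globin gene Hbb-bh1 was under the count filter. The cells are labelled as stem cells, and on day 10 the controls held the stem cell transcripts Pou5f1, Nanog (258 and 235 CPM) and Sox2 beside the mesoderm gene T. Neural markers gave 3 rises and 6 falls among 16 (median -0.15). The neuronal genes Elavl3 (28.7 and 18.1 to 16.4 and 11.0 CPM, log2 -0.77, SE 0.10) and Tubb3 (log2 -0.54) and the progenitor gene Nes (214 and 206 to 148 and 148 CPM, log2 -0.50, SE 0.06) fell. Neurod1 rose (log2 0.93).

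Mesoderm and cardiac genes were split, with 8 rises and 8 falls among 26 and a median of -0.01. Of the 26, 24 reached the count filter in both controls, and 7 of these rose and 8 fell (median -0.15). T (brachyury), the gene of nascent mesoderm, rose from 227 and 212 to 369 and 269 CPM (log2 0.52, SE 0.07, adjusted p = 8.42e-07). Among contractile genes, Myh7 rose from 8.66 and 10.9 to 20.2 and 25.2 CPM (log2 1.22, SE 0.11, adjusted p = 7.13e-11) and Tnnc1 from 35.5 and 35.2 to 68.2 and 64.2 CPM (log2 0.90, SE 0.06, adjusted p = 4.17e-13). All of these had separated groups. By contrast Hand2, a regulator of heart and limb, fell from 3.19 and 7.23 to 0.988 and 1.51 CPM (log2 -2.12, SE 0.24, adjusted p = 1.76e-08), and Eomes from 133 and 160 to 83 and 75.3 (log2 -0.90, SE 0.07, adjusted p = 1.82e-12). Eomes is also an early endoderm and trophoblast gene.

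Endoderm genes gave 6 rises and 8 falls among 23 (median 0.04, 0.17 in pair 1 and -0.30 in pair 2). Cxcr4, a chemokine receptor of definitive endoderm, fell from 13.7 and 16.5 to 7.49 and 6.44 CPM (log2 -1.17, SE 0.14, adjusted p = 2.69e-08). Sox17, the defining factor, fell from 18.9 and 18.6 to 9.06 and 11.8 CPM (log2 -0.81, SE 0.12), and Foxa2 from 17.6 and 14.4 to 11.4 and 8.68 (log2 -0.69, SE 0.12). Treated and control libraries did not overlap in any of them. Cer1 (log2 -1.09), Gata6 (-0.53) and Gata4 (-0.49) fell too, the last with overlapping groups. The 6 risers were Sparc (588 and 686 to 853 and 795 CPM, log2 0.37), Lamb1 (0.26), Col4a2 (0.26), Dab2 (0.18), Cubn (0.57) and Rbp4 (0.66), the first 3 of which encode matrix proteins. The summed level of the 23 genes was 2570 and 3376 CPM with DMSO and 3161 and 3514 with dTAG-13, higher within each pair and overlapping between the groups. DESeq2 with the block called 6 of the 23. Trophoblast genes gave 6 rises and 4 falls among 14 (median 0.22). The risers included the epithelial keratin genes Krt7 (41.9 and 53.3 to 74.4 and 86.8 CPM, log2 0.76, SE 0.06), Krt18 (837 and 926 to 1500 and 1250 CPM, log2 0.64), Krt19 (0.52) and Krt8 (0.38). Of the regulators, Cdx2 and Hand1 (log2 0.33) rose, and Eomes and Tfap2c (-0.33) fell. Tfap2a fell in the blocked test (-0.34), but its groups overlapped, its pairs gave 0.08 and -0.52, and DESeq2 with the block did not call it (adjusted p = 0.477), while Ascl2 (-0.01), Gcm1 (0.10) and Plac1 (0.42) did not pass.

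Smooth muscle genes were higher. Of 12 contractile genes of smooth muscle, 10 rose and none fell, with a median of 0.53, and DESeq2 with the block called 6. Acta2, which encodes smooth muscle actin, went from 248 and 354 to 526 and 521 CPM (log2 0.82, SE 0.09, adjusted p = 9.17e-09), and Lmod1 from 9.82 and 21.0 to 24.0 and 35.4 (log2 0.95, SE 0.10). The calponin gene Cnn1 (log2 0.52), Tpm2 (0.48), Myl9 (0.54) and Tagln (0.53) rose by less, and their dTAG-13 libraries also stood above the controls. Fibroblast and feeder genes gave 10 rises and 3 falls among 21, and 8 did not pass (median 0.30). The matrix genes Postn (1.81 and 2.73 to 4.45 and 6.66 CPM, log2 1.29, SE 0.21) and Col6a1 (5.68 and 6.02 to 10.3 and 12.6 CPM, log2 0.98, SE 0.15) rose. The surface receptor gene Pdgfra fell from 11.6 and 21.4 to 5.27 and 8.72 CPM (log2 -1.25, SE 0.13) and Thy1 from 21.7 and 15.4 to 10.9 and 7.21 (log2 -1.05, SE 0.12), while Pdgfrb, the other PDGF receptor gene, did not pass (log2 0.26, adjusted p = 0.0736). The summed level of the 21 genes was 3106 and 4755 CPM with DMSO and 4674 and 5256 with dTAG-13, overlapping between the groups. The part of feeder cells in these values was not tested.

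Endothelial genes gave 7 falls and 1 rise among 16, and 8 did not pass (median -0.26). DESeq2 with the block called 2 of the 16, a share near the 10.9% of all genes. Sox18 (1.38 and 1.26 to 0.659 and 0.257 CPM, log2 -1.70, SE 0.41) and the receptor gene Tek (log2 -0.44) fell with separated groups, and Kdr (15.6 and 39.0 to 15.3 and 21.9 CPM, log2 -0.56) with overlapping ones. Kdr moved almost only in pair 2. In DESeq2 neither Tek (adjusted p = 0.139) nor Kdr (0.13) passed, and Sox18 had no adjusted p. Esm1, which encodes the secreted proteoglycan endocan, was the riser, going from 0.372 and 0.354 to 2.80 and 2.65 CPM (log2 2.89, SE 0.37, adjusted p = 1.49e-07). However, Esm1 passed the count filter through the dTAG-13 libraries alone and so had to be higher there. Of the 14 endothelial genes that reached the filter in both controls, 0 rose and 7 fell (median -0.35). Blood genes gave 3 rises (Lmo2 at log2 1.22, Gata2 at 0.54 and Runx1 at 0.33) and 3 falls (Myb, the globin gene Hba-x at -1.89 and Tal1 at -1.09) among 14, shares of 21.4% each way beside 17.7% and 19.1% of all genes. Only 2 of these 6 were called by DESeq2 with the block, which gave adjusted p = 0.0553 for Gata2, 0.166 for Runx1 and 0.339 for Tal1 and no value for Hba-x. Except for Myb, Runx1 and Gata2 these were at under 5 CPM in the controls, and Gata1, Klf1, Epor, Spi1, Nfe2, Itga2b and Hhex did not pass. Hba-x passed the count filter through the DMSO libraries alone and so had to be lower with dTAG-13.

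The Hedgehog pathway acts through the receptor PTCH1, the transducer SMO and the GLI factors, and Gli1 and Ptch1 are themselves targets of the pathway. Of 13 genes 6 fell and 1 rose (median -0.20). Besides Gli1, Ptch1 fell from 38.5 and 58.7 to 28.2 and 38.9 CPM (log2 -0.53, SE 0.07, adjusted p = 2.16e-07). For Ptch1 the groups overlapped by a narrow margin. The ligand gene Shh was at 2.87 and 3.29 CPM against 1.48 and 2.87 (log2 -0.43, adjusted p = 0.172), and Dhh did not pass either (log2 0.40, adjusted p = 0.221). Of the transducers Sufu (log2 -0.35), Smo (-0.23) and Gli2 (-0.20) fell slightly, Gli3 did not pass (0.15, adjusted p = 0.0601), and the coreceptor gene Cdon rose (0.31).

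In the Wnt pathway 13 of 29 genes rose and 5 fell (median 0.22). The risers included the ligand genes Wnt7a (15.5 and 23.1 to 28.5 and 32.7 CPM, log2 0.66, SE 0.09), Wnt7b (log2 0.64), Wnt9a (0.59) and Wnt4 (40.5 and 52.7 to 64.0 and 70.5 CPM, log2 0.53, SE 0.07). The feedback inhibitor and target gene Axin2 rose from 50.9 and 64.3 to 75.7 and 80.7 CPM (log2 0.44, SE 0.06, adjusted p = 1.11e-06). Sfrp1, a secreted Wnt antagonist, fell to 57.3 and 60.7 CPM from a mean of 112 in the controls (log2 -0.92 over both pairs, SE 0.06, adjusted p = 3.25e-14). Its replicates were close and the groups wide apart. Of the Wnt genes 10 passed in DESeq2 with the block.

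BMP and TGF-beta genes gave 14 rises and 2 falls among 27 (median 0.25). The BMP ligand gene Gdf6 rose from 5.2 and 6.57 to 15.0 and 18.4 CPM (log2 1.5, SE 0.13, adjusted p = 5.49e-11) and Bmp4 from 44.1 and 58.4 to 76.6 and 78.8 (log2 0.60, SE 0.07). The target gene Id1 (59.4 and 49.4 to 97.5 and 69.9 CPM, log2 0.61, SE 0.06) rose beside them. Groups were separated for all 3 genes. Ltbp1, which stores latent TGF-beta in the matrix, rose (log2 0.52), and the Nodal inhibitor gene Lefty2 fell (-0.42). Of these 27 genes 9 passed in DESeq2 with the block.

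Retinoic acid genes gave 6 rises and 4 falls among 17 (median 0.04). Besides Aldh1a1 and Aldh1a2, described above, Aldh1a3 of the same enzyme family rose from 1.43 and 2.38 to 5.68 and 5.74 CPM (log2 1.54, SE 0.23, adjusted p = 1.64e-06) and the retinol dehydrogenase gene Rdh10 from 55.9 and 74.6 to 83 and 99 (log2 0.48, SE 0.06). Cyp26a1, whose enzyme degrades retinoic acid, fell from 71.4 and 62.9 to 59.5 and 41.8 CPM (log2 -0.43, SE 0.07), and the binding protein gene Crabp1 from 7.27 and 5.06 to 4.12 and 1.40 (log2 -1.30, SE 0.22). In each of these genes the groups were apart.

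FGF genes gave 11 falls and 4 rises among 24 (median -0.18, -0.04 in pair 1 and -0.30 in pair 2). The falls included the ligand genes Fgf15, Fgf5 and Fgf4 as above, Fgf17 (log2 -0.63) and Fgf8, the ligand of the primitive streak (88.5 and 74.9 to 72.3 and 50.0 CPM, log2 -0.44, SE 0.06). The feedback inhibitor gene Spry2 fell too (88.2 and 83.7 to 69.3 and 56.2 CPM, log2 -0.47, SE 0.06). Fgf8 and Spry2 had separated groups by a small margin. By DESeq2 with the block 6 of the 24 passed.

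Xist, the RNA that coats and silences an X chromosome, was at 440 and 1110 CPM with DMSO and at 360 and 981 with dTAG-13 (log2 -0.23, SE 0.10, adjusted p = 0.0757). It was lower with dTAG-13 in both pairs, by far less than replicate 2 exceeded replicate 1 in either treatment. Xist passed the threshold with RLE scaling, library totals or limma-voom with the block. It did not pass in DESeq2 with the block (adjusted p = 0.0685) or with edgeR's older quasi-likelihood method (0.0662). Nor did it pass in the edgeR fit of 8 libraries (adjusted p = 0.483) or in edgeR without the block (0.997). Tsix, its antisense partner, was at 22.7 and 18.3 CPM against 19 and 19.2 (log2 -0.08, adjusted p = 0.584). Without stated strand use, reads of Xist and Tsix cannot be told apart where they overlap. The Xist activators Jpx (log2 0.05) and Rlim (-0.10) did not pass. Of the 10 genes of the X-inactivation centre, Ftx, a noncoding RNA gene upstream of Xist, fell from 17.6 and 23.1 to 9.38 and 13.4 CPM (log2 -0.83, SE 0.11, adjusted p = 1.83e-07). Its groups did not overlap, unlike those of Xist. Tsx fell from 1.86 and 1.06 to 0.412 and 0.331 CPM (log2 -1.88, SE 0.41), and Nap1l2 rose (log2 0.58). However, Tsx passed the count filter through the DMSO libraries alone and so had to be lower with dTAG-13.

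Over the 525 tested X-linked genes other than Xist and Tsix, 95 rose (18.1%) and 111 fell (21.1%), with a median of -0.02. Autosomal genes gave 17.7%, 19.1% and -0.01, so the X chromosome as a whole was close to the autosomes. Counts per allele were not analysed here, and total counts do not show which X chromosome they come from. Of 18 genes known to escape X inactivation 3 rose and 6 fell (median -0.13). Bgn (10.0 and 10.0 to 16.5 and 16.1 CPM, log2 0.70, SE 0.12) rose most among those named, followed by Shroom4 (0.60) and Syap1 (0.37), and Firre (-0.32) and Utp14a (-0.25) fell.

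Among 36 imprinted genes 15 rose and 6 fell (median 0.17). Plagl1, a zinc finger gene of an imprinted network, rose from 50.9 and 166 to 108.3 and 289 CPM (log2 0.92, SE 0.07, adjusted p = 4.17e-13). It was higher with dTAG-13 within each pair, and the groups overlap because replicate 2 was the higher in either treatment. The noncoding Kcnq1ot1 (34.7 and 55.1 to 53.7 and 78.2 CPM, log2 0.56, SE 0.06) and Grb10 (14.5 and 15.0 to 23.4 and 21.4 CPM, log2 0.59, SE 0.10) rose. A pair of genes of the Prader-Willi region diverged, Magel2 falling from 103 and 87.5 to 60.9 and 60.4 CPM (log2 -0.64, SE 0.06, adjusted p = 4.79e-10) and Ndn rising from 92.3 and 74.6 to 109 and 99.5 (log2 0.33, SE 0.06).

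The clustered protocadherins, whose promoter choice depends on CTCF and cohesin, gave 23 rises and no fall among 38 (median 0.31). The members of a cluster share their constant exons, so this is no count of independent genes. All 22 gamma members rose, by 0.25 to 0.32 in log2 fold change. Of these 21 were at 99.2 to 112 CPM in the controls, for example Pcdhgc5 with 99.9 and 110 CPM in the controls and 136 and 126 after dTAG-13 (adjusted p = 0.000109). Pcdhgc3 stood higher, at 125 and 160 CPM against 166 and 172 (log2 0.25). The remaining riser carries an alpha name, Pcdha7-g, but its 134 and 122 CPM after dTAG-13 (log2 0.30) are near the gamma values. The other 14 alpha members were at 2.43 to 3.66 CPM in the controls and 0.30 to 0.45 higher on the log2 scale, with none past the threshold. Germline genes gave 2 rises (8.33%) and 3 falls (12.5%) among 24 (median 0.00), shares below the 17.7% and 19.1% of all genes. The piRNA gene Tdrd12 (19.8 and 11.1 to 10.1 and 5.63 CPM, log2 -0.97, SE 0.13) was among the falls and Tdrd7 (log2 0.61) among the rises.

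DNA replication genes were lower by small amounts: 28 of 38 fell and none rose (median -0.31, -0.29 in each pair). Rrm2, the ribonucleotide reductase subunit of S phase, changed most, from 245 and 242 to 149 and 135 CPM (log2 -0.78, SE 0.06, adjusted p = 6.71e-12). The polymerase genes Pola1 (82.2 and 89.4 to 56.5 and 61.0 CPM, log2 -0.55), Pold1 (-0.53) and Pole (-0.49), the cyclin gene Ccne1 (-0.43) and Mcm10 (-0.43) followed. Mitotic genes gave 23 falls and no rise among 32 (median -0.21), with Bub1b of the spindle checkpoint the largest of those named (244 and 228 to 188 and 171 CPM, log2 -0.40, SE 0.06). DESeq2 with the block called 21 of the 38 replication genes and the 8-library fit 15. Of the 32 mitotic genes they called 4 and 2, which are shares near and below those of all genes in these fits (10.9% and 14.5%). Myc, a driver of growth and cell cycle entry, fell from 72.9 and 83.6 to 51.9 and 50.1 CPM (log2 -0.63, SE 0.06, adjusted p = 1.61e-09), with its groups apart.

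Targets of p53 gave 16 rises and 2 falls among 28 (median 0.23), none by 2-fold. The cell cycle inhibitor gene Cdkn1a (p21) rose from 255 and 238 to 351 and 288 CPM (log2 0.37, SE 0.07, adjusted p = 8.54e-05) and the proapoptotic gene Pmaip1 (Noxa) from 139 and 170 to 207 and 231 (log2 0.51, SE 0.06). Perp (log2 0.47), Gadd45a (0.35), Trp53inp1 (0.37) and Polk (0.34) rose as well. The 8-library fit called 5 of the 28 and DESeq2 with the block 7, beside 14.5% and 10.9% of all genes in these fits. Immediate early genes gave 14 rises and 4 falls among 27 (median 0.24), with Ier5, Ier3 and Maff between 0.44 and 0.47. DESeq2 with the block and the 8-library fit each called 8 of them.

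Interferon response genes gave 15 rises and no fall among 30 (median 0.37, 0.44 and 0.28 in the pairs). Of the 30, 28 reached the count filter in both controls, and 13 of these rose and none fell (median 0.34). The other 2 passed it through the dTAG-13 libraries alone and so had to be higher there. Ifit3, an antiviral effector and a member of those 2, rose from 0.319 and 0.152 to 3.13 and 1.18 CPM (log2 3.15, SE 0.42, adjusted p = 3.79e-07), from controls near the counting floor. Oasl2 rose from 14.8 and 13.1 to 32.9 and 25.8 CPM (log2 1.06, SE 0.09, adjusted p = 7.49e-11). Both had separated groups. Isg15, a ubiquitin-like modifier, rose from 15.6 and 8.34 to 26.6 and 14.4 CPM (log2 0.78, SE 0.11), and Tap1 (0.41), Gbp3 (0.46) and the class I gene H2-D1 (0.41) rose by less. Of the 30 genes 8 passed in DESeq2 with the block.

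Integrated stress response genes gave 16 falls and 3 rises among 30 (median -0.21). The falls included the amino acid transporter gene Slc7a3 (275 and 183 to 177 and 116 CPM, log2 -0.64, SE 0.06, adjusted p = 3.91e-10), Mthfd2 (98.9 and 70.4 to 62.3 and 46.7 CPM, log2 -0.63, SE 0.06), Psat1 (-0.56), Pck2 (-0.66) and Gpt2 (-0.56). Groups did not overlap for any of these 5. The 8-library fit called 8 of the 30 and DESeq2 with the block 10. Atf3, a stress-induced transcription factor, rose from 55.4 and 69.4 to 83 and 92.9 CPM (log2 0.50, SE 0.06). Ribosomal protein genes gave 27 falls and 1 rise among 85 (median -0.15, -0.06 in pair 1 and -0.24 in pair 2), with the caution on copies given for Rpl27. Rpl19 (110 and 50.8 to 79.9 and 20.7 CPM) and Rpl35 (70.1 and 7.63 to 32.7 and 6.11 CPM) differed more between replicate numbers than between treatments. Replication-dependent histone genes, whose transcripts lack a poly(A) tail, had 22 members past the count filter of 58 in the table. Of these 5 rose (22.7%) and 1 fell (4.55%), beside 17.7% and 19.1% of all genes. Their median was -0.12 (-0.24 in pair 1 and 0.10 in pair 2). DESeq2 with the block called 2 and gave no adjusted p for 14. The linker histone gene Hist1h1c rose from 19.3 and 21.4 to 34.2 and 35.5 CPM (log2 0.77, SE 0.08).

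**Figure D4:**
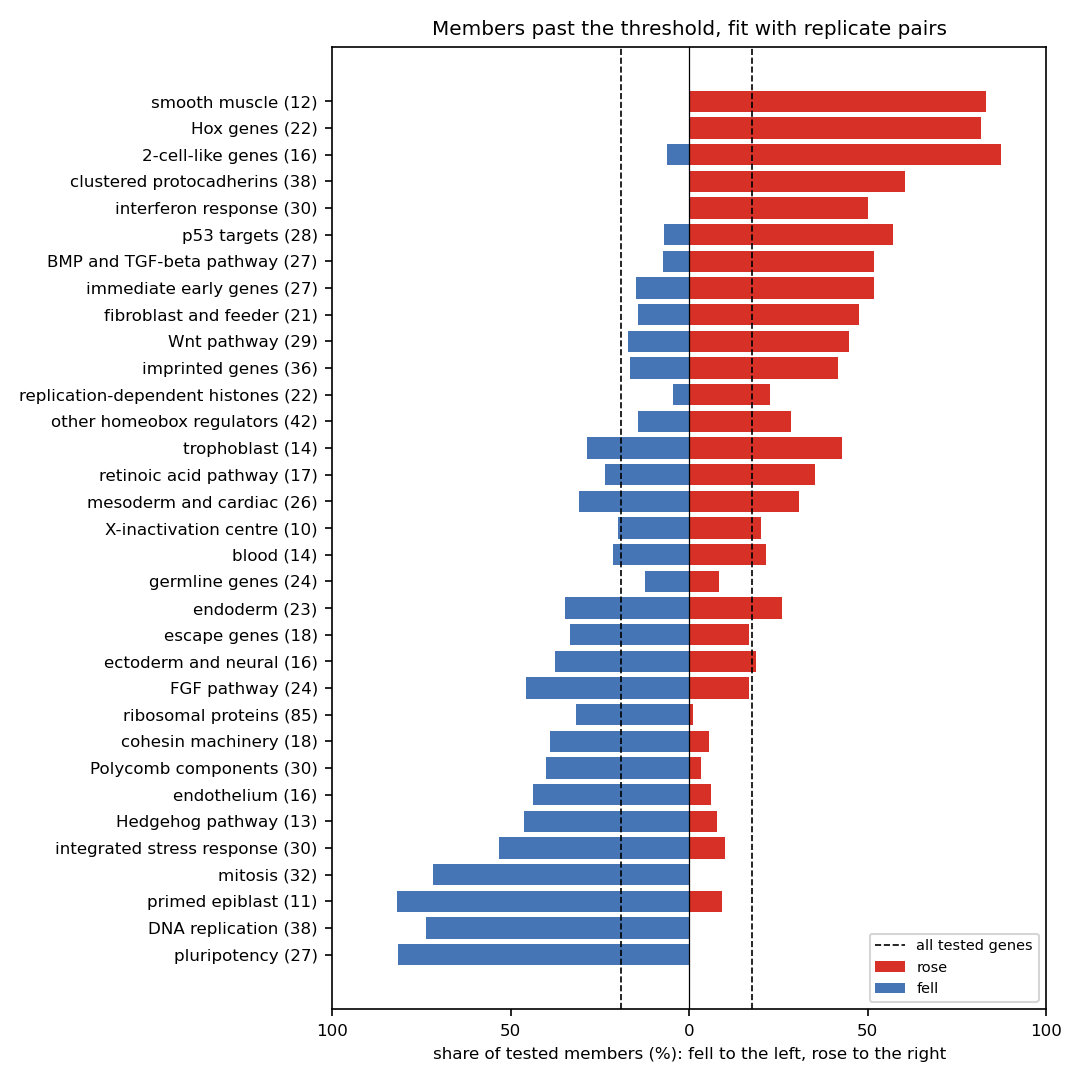
Share of tested members of each gene list that rose (red, to the right) or fell (blue, to the left), in percent, with the number tested in brackets and lists ordered by the difference of the 2 shares. Dashed lines mark all tested genes (17.7% rose, 19.1% fell); smooth muscle, Hox and 2-cell-like genes are at the top and pluripotency, DNA replication and primed epiblast genes at the bottom.

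In the same clone WAPL had also been degraded on days 4 to 7, with RNA taken on day 7 from 2 libraries per treatment, and all 8 clone H7 libraries were fitted together. Some list medians were smaller late: 1.29 late against 1.86 early for Hox genes, 2.19 against 3.32 for 2-cell-like genes, 0.23 against 0.86 for trophoblast genes and 0.13 against 0.70 for other homeobox regulators. Smooth muscle genes (0.55 and 0.53) and primed epiblast genes (-0.59 and -0.73) were alike in size. Pluripotency genes were lower late (-0.34) than early (-0.17). Of the 22 Hox and 16 2-cell-like genes, 8 and 10 passed the count filter of the late window through dTAG-13 alone and so had to be higher there. The late medians of these lists lean on those genes, and medians without them were not taken for either window. These medians are descriptions, and no Hox or 2-cell-like gene passed the test of the difference.

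The test of the difference itself called 1 gene (0.00698%), Nrp1, which encodes a coreceptor for VEGF and semaphorins. On days 4 to 7 it rose from 2.35 and 2.45 to 7.50 and 10.5 CPM (log2 1.89, SE 0.17). By days 7 to 10 its controls were at 27.1 and 69.7 CPM and the dTAG-13 libraries at 25.7 and 51.5 (log2 -0.28, SE 0.12). The dTAG-13 libraries of the early window were thus above their controls, and those of the late window overlapped with theirs. In the fit of the 4 late libraries alone Nrp1 fell by 0.32 (SE 0.07, adjusted p = 0.000907). The difference, late minus early, was -2.17 (SE 0.21, adjusted p = 0.0114), and without the block it was -2.25 (adjusted p = 1). Sox17 had a difference of -2.52 (adjusted p = 0.0668), with 1.08 and 0.432 CPM rising to 2.69 and 2.30 early against the late fall, and Vldlr one of 1.85 (adjusted p = 0.0599), but neither passed. At an unadjusted p under 0.05 there were 1018 genes.

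**Figure D5:**
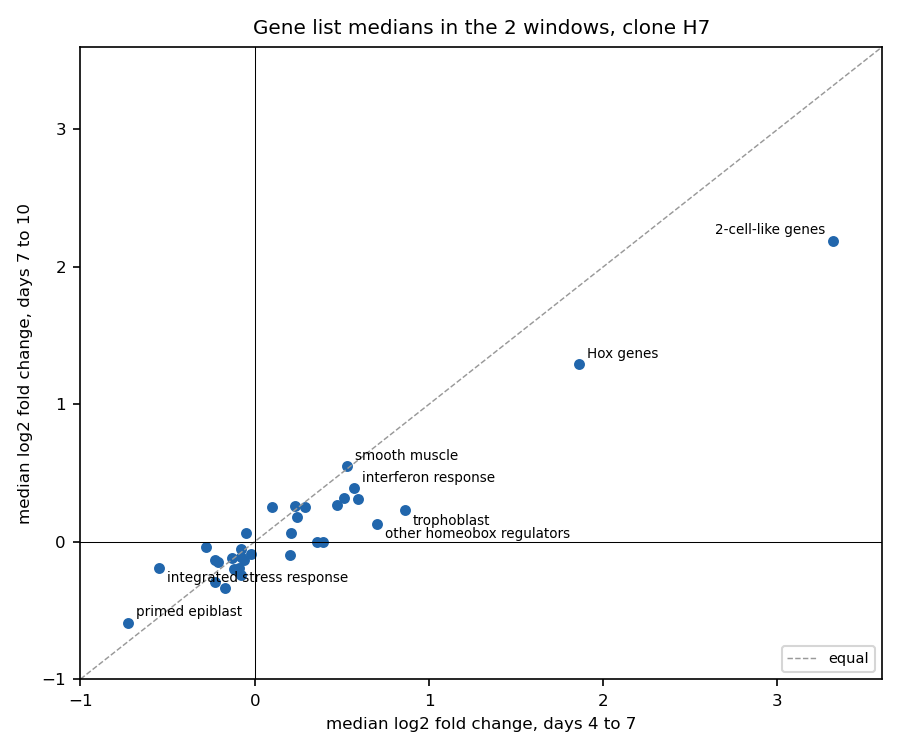
Median log2 fold change of each of 33 gene lists in the 8-library fit of clone H7, with the window of days 4 to 7 on the x axis and days 7 to 10 on the y axis; the dashed line marks equal values. Hox genes (1.86 and 1.29) and 2-cell-like genes (3.32 and 2.19) lie below the line, and primed epiblast genes (-0.73 and -0.59) are lowest on both axes. In the late window 8 Hox and 10 2-cell-like genes passed the count filter through dTAG-13 alone and so had to be higher there.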

How the data were processed

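The table used holds raw counts per gene in 4 poly(A) RNA-seq libraries, as deposited by the authors, not normalized, for 14997 genes. A second deposited count table covers days 4 to 7 (24421 genes, of which only clone H7 columns were used). The submitters' processing notes name TopHat2, Novoalign, Bowtie2, HOMER, DESeq and DESeq2 among the tools, and mm9, hg19 and dm6 as builds, with no role or version. How reads were counted, whether strand was used and what was done with multi-copy genes is not given in the sources used here.

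The main test was edgeR 4.0.16 (R 4.3.3): filterByExpr with a minimum count of 10, TMM scaling, the quasi-likelihood F-test with the replicate number as a block, which leaves 1 residual degree of freedom per gene, and Benjamini-Hochberg adjustment to 0.05. CPM values include the TMM factor. Alternatives were RLE scaling, library totals, no filter, a mean count of 50 or more, DESeq2 1.42.0, limma-voom (limma 3.58.1), no block, all 8 clone H7 libraries, leaving out each library or pair, and, chosen after seeing the data, edgeR's older quasi-likelihood method. The test was tested on simulated data. Promoters are RefSeq's for GRCm38.p6, matched by symbol. Figures were drawn with matplotlib 3.10.9.

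Members, tests and lists were chosen with earlier results of these data known. A rule named the genes. It took the 10 largest rises and the 10 largest falls among called genes whose log2 CPM averaged 2 or more and whose groups did not overlap, without predicted genes, RIKEN clones, pseudogenes or small RNAs. It added up to 6 called members of each list by smallest p, all members of lists with 15 or fewer, and Myc, Ezh2, Pou5f1, Wapl, Rad21, Ctcf, Nipbl, Rlim, Jpx, Xist and Tsix. Hoxc8, Hoxb7, Usp17ld, Eif1a, Zscan4d, Nanog, Nrp1, Vldlr, Sparc, Lamb1, Col4a2, Dab2, Cubn, Rbp4, Pdgfrb, Pcdhgc3 and Pcdha7-g were named outside it, after their values were seen. Results for some genes are not reported here.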

Additional observations from a re-analysis of the deposited data

Results flagged for a closer look

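The response of Nrp1 to dTAG-13 differed between the windows in clone H7, by -2.17 on the log2 scale (days 7 to 10 minus days 4 to 7, SE 0.21, edgeR adjusted p = 0.0114, with the replicate number as a block). It was the only gene of 14324 to pass in that fit, and 0 genes passed without the block, where 1018 had an unadjusted p under 0.05 with it. In the controls the level of Nrp1 was at 2.35 and 2.45 CPM in the early window and at 27.1 and 69.7 CPM in the late one. Early, both dTAG-13 libraries (7.50 and 10.5 CPM) were above both controls. Late, the dTAG-13 libraries (25.7 and 51.5 CPM) were lower than the control of their own pair.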

How the results depend on the processing

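The edgeR count of 5197 genes depended on the replicate block: without it edgeR called 0, limma-voom 0 and DESeq2 44, and without the block the counts were 31 and 145 when DMSO replicate 1 or 2 was left out, and 58 and 27 when dTAG-13 replicate 1 or 2 was. In the labels the libraries share only a number. With the replicate block, DESeq2 called 1542, and the 8 clone H7 libraries gave 2071, of which 2062 were among the 5197, or between 455 and 727 with 1 pair left out. RLE scaling, library totals, both filters, limma-voom with the block and edgeR's older method gave between 4772 and 5425. None of the called genes tested changed sign in these, in DESeq2 with the block or in the 8-library fit, whereas between 212 and 525 did when 1 library and the block were left out. The difference between windows had 1 gene with the block and 0 without it, also when any of the 4 late libraries was left out as well. All 212 called genes that the rule names lost the call in edgeR without the block. DESeq2 with the block called 162 of them, did not call 44 and gave no adjusted p for 6.

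The median of X-linked genes was -0.02, and 0.00 with library totals. Signs turned for Ascl2 (0.02) and Wapl (0.01) with library totals and for Spi1 (-0.28) without the block, none of them called, and within a single pair for Tfap2a (from -0.52 without replicate 1 to 0.08 without replicate 2), Myh11 (from 1.01 to -0.13) and Hist1h2ag (from -0.74 to 1.81), all called. Of 33 list medians, 3 moved with library totals, 2 without the block and 0 with RLE scaling, and the mesoderm and cardiac median, near 0 throughout, alone changed sign. The least deep library, dTAG-13 replicate 1, has a 3-count floor of 0.247 CPM, which limits low Hox and 2-cell-like genes.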

Other observations

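The genes in this part were chosen after their values were seen. All 3 Myc family genes were lower with dTAG-13. Mycn fell from 166 and 161 CPM with DMSO (replicates 1 and 2) to 116 and 97.6 (log2 -0.62, SE 0.06, edgeR adjusted p = 6.6e-10), and Mycl from 80.3 and 78.9 to 54 and 50.4 (log2 -0.61, SE 0.06, adjusted p = 8.21e-10), beside the -0.63 of Myc. Cardiac troponin T (Tnnt2) rose from 0.478 and 0.404 to 2.31 and 1.88 CPM (log2 2.23, SE 0.37), while Mesp1, which marks cardiac progenitors, fell from 2.76 and 3.59 to 1.65 and 0.92 (log2 -1.47, SE 0.29). Both had groups that did not overlap. However, Tnnt2 passed the count filter through the dTAG-13 libraries alone and so had to be higher there. Stra6, which encodes a retinol transporter, rose from 2.44 and 2.12 to 6.01 and 4.86 CPM (log2 1.24, SE 0.21), and the retinoic acid receptor gene Rarb from 1.49 and 1.26 to 2.8 and 2.5 (log2 0.95, SE 0.27).

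Some genes differed between replicate numbers and hardly between treatments. Zbed6 was at 24.2 and 28.3 CPM in the DMSO and dTAG-13 libraries of replicate 1 and at 110 and 106 in those of replicate 2. For Rps4x the order was inverse, with 276 and 241 CPM in replicate 1 and 77.3 and 82.4 in replicate 2.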
